A study of Rattus norvegicus with 3 samples.

Results

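Long non-coding RNA (lncRNA) genes made up 2423 of the 29684 genes in the deposited table of RNA from extracellular vesicles of rat adipose-derived mesenchymal stem cells. They were chosen as every gene whose type in that table was lncRNA, with no use of its level. Vesicles are membrane-bound particles that cells shed, and here they were collected from the culture supernatant of wild-type stromal cells taken from inguinal fat of rats, whose age and sex the labels do not give. There was 1 group of 3 libraries, replicates 1 to 3, each made from its own vesicle batch with a low-input kit that keeps the strand and primes along total RNA, and cDNA of ribosomal RNA was cut away before the last amplification. With no second group, the comparisons are between genes of the same libraries. The labels do not say whether different animals or cultures supplied the batches, so the spread between libraries may be technical.

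Transcripts called lncRNA have no recognised long reading frame and are otherwise made like messenger RNAs, often spliced and polyadenylated. Some act in the nucleus on chromatin or on neighbouring genes, some bind proteins or microRNAs in the cytoplasm, and some are precursors from which small nucleolar RNAs or microRNAs are cut. Most annotated lncRNA genes have no known function, and many are known only as transcript models.

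The sequences shown first belong to members with an entry in RefSeq, from which the letters were taken in build GRCr8. LOC120098113 holds the hairpins of miR-143 and miR-145, microRNAs known for their abundance in smooth muscle and other mesenchymal cells. Its promoter window, 250 bases before to 50 after the start (chr18:57389063-57389362, minus strand), is shown because the level of this member rests on the most counts among the microRNA hosts. LOC120098824 (chr20:3155746-3156045, plus strand) is shown as the highest member of RefSeq type lncRNA with a window. Capitals mark the motif CCAAT, searched on both strands (on the reverse strand it reads ATTGG), and 1 match was found in each of the 2 windows.
LOC120098113: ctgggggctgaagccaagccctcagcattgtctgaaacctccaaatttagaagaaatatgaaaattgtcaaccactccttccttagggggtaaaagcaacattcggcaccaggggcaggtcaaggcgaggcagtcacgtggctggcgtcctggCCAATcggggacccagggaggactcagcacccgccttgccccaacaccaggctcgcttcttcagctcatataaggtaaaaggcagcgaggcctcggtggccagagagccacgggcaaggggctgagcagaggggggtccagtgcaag
LOC120098824: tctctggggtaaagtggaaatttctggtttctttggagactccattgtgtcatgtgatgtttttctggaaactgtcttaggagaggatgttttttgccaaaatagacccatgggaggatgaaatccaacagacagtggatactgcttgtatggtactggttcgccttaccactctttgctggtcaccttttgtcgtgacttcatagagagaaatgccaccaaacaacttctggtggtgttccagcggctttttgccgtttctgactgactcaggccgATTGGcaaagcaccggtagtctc
The mature microRNAs cut from hairpins within 3 hosts are shown with the seed, bases 2 to 8, in capitals, and each of these seeds differs from the others. Their mature forms were not measured in these libraries.
rno-miR-143-3p: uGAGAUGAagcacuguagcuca
rno-miR-145-5p: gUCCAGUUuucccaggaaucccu
rno-miR-425-5p: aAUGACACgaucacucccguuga
rno-miR-100-5p: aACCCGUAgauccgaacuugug
No sequence is shown for the most abundant members, which had no RefSeq window.

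Total counts were 5219920, 6786182 and 6618461 in replicates 1, 2 and 3, and a median member had 58, 58 and 65 counts. Values below are the authors' FPKM (reads scaled by transcript length and library size), as mean ± SD over the 3 libraries unless said otherwise. Of genes that mark the source cells, Vim, the intermediate filament vimentin of mesenchymal cells, had 172 ± 63.0 FPKM. The surface markers Thy1 (7.49 ± 1.28), Cd44 (6.26 ± 0.140), Nt5e (5.04 ± 0.764) and Eng (4.39 ± 1.07) lay far below Vim. Nt5e and Eng were near the median of nuclear protein-coding genes (4.83 ± 0.380). Cd34, which marks progenitors, was near Eng at 4.74 ± 0.654, and the blood cell marker Ptprc had 2.78 ± 0.655.

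Most lncRNA genes lay at a low and narrow level, just under protein-coding genes and above genes that these cells are not thought to use. The median member had 4.68, 3.86 and 4.30 FPKM in replicates 1, 2 and 3 (4.28 ± 0.412, n = 3). The median of the 22745 nuclear protein-coding genes was 4.83 ± 0.380. The 1319 genes of olfactory and vomeronasal receptors, proteins of the nose that detect odours and pheromones, serve here as a background, and their median was 2.64 ± 0.303. Members took up 4.71% ± 0.581 of the counts and 3.53% ± 0.479 of the FPKM summed over genes.

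The order of these 3 medians was the same in every library. On the log2(FPKM + 1) scale the lncRNA median exceeded the receptor median by 0.52, 0.54 and 0.54 (mean 0.53 ± 0.01, exact two-sided sign-flip permutation test, p = 0.25, the smallest that 3 libraries allow). It lay below the coding median by a difference of -0.13, -0.17 and -0.14 (mean -0.15 ± 0.02, same exact test, p = 0.25). The second difference was small beside the first, and among genes with at least 30 counts in every library it was -0.01, negative in 2 of 3 libraries. A pseudocount of 1 understates differences between low genes.

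At least 1 FPKM in every library was reached by 2063 members (85.1%), against 83.7% of all genes and 70.1% of receptor genes. Reaching 1 FPKM therefore does not show that a gene is used by these cells. At least 10 FPKM in every library was reached by 118 members (4.87%), against 6.8% of all genes and 1.59% of receptor genes. Both shares of members were near or under those of the whole table, so a reading above these levels did not set lncRNA genes apart from it. Between the 5th and the 95th percentile, mean FPKM ran from 0.994 to 12.6, and the 99th percentile was 34.8.

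**Figure D1:**
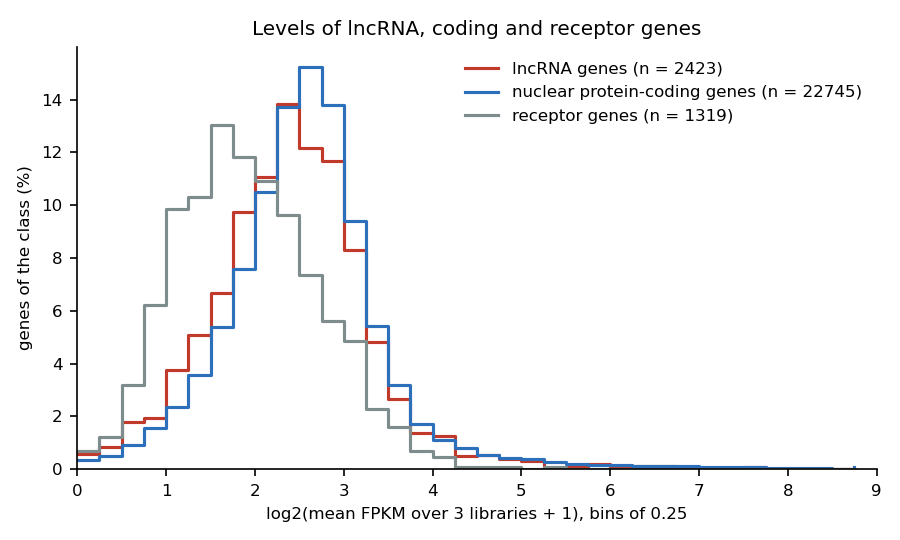
Share of genes of each class (y axis, percent) by log2(mean FPKM over 3 libraries + 1) (x axis), for lncRNA, nuclear protein-coding (receptor genes included) and receptor genes. The medians are, in that order, 4.28, 4.83 and 2.64 FPKM.

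A small set of members stood clearly above this level. By limma's treat test, which asked whether a gene's log2(FPKM + 1) exceeded the receptor median of the same library by over 2, 23 of 2423 lncRNA genes were called at an adjusted p under 0.05 (Benjamini-Hochberg over all 29684 genes). That is 0.949% of members, against 1.82% of all genes and 1.59% of nuclear coding genes, and 60 members had an unadjusted p under 0.05. Without replicate 3 limma called 0 genes of the whole table (0 members, 49 of them at an unadjusted p under 0.05), although differences stayed as large, as for ENSRNOG00000069855 (5.42, against 5.38 with all libraries). Without replicate 1 it called 33 members, or 1.36% against 2.59% of all genes. Without replicate 2 it called 16, or 0.66% of members. That was above the 0.506% of coding genes, so the order of these shares turned, but below the 0.755% of all genes. Together the 23 took up 0.466% ± 0.108 of the FPKM summed over genes. Of them 21 carry no symbol beyond an identifier and none has a known function in the sources used here.

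The highest member was ENSRNOG00000063386 (chr9:3111137-3112723 in mRatBN7.2, plus strand), at 322.7, 120.6 and 139.4 FPKM. Replicate 1 was more than double the others, so its mean of 194 ± 112 is imprecise, and its log2(FPKM + 1) exceeded that of the receptor median by 5.60 (SE 0.29, adjusted p 0.00508, limma). ENSRNOG00000066507, in the same stretch of chromosome 9 (chr9:2920322-2922092, minus strand), had 216, 233 and 104 FPKM. Here replicate 3 was the low library, and the difference was 5.59 (SE 0.29, adjusted p 0.00522, limma).

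ENSRNOG00000069855 (chr1:55057234-55062085, minus strand) was steadier, at 178, 134 and 142 FPKM (difference 5.38, SE 0.16, adjusted p 0.00231, limma). It started 23 bases downstream of the end of the coding gene ENSRNOG00000067256, on the same strand, which had 172 ± 25.5 FPKM, and both were highest in replicate 1. ENSRNOG00000066399 (chr1:246153662-246156548, minus strand) went the other way, with 87.3, 182 and 140 FPKM and its low value in replicate 1 (difference 5.18, SE 0.28, adjusted p 0.00671, limma). It converged on Neurl1, which encodes a ubiquitin ligase, from 759 bases away. Neurl1 itself had only 2.49 FPKM, close to the receptor median.

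ENSRNOG00000066888 (chr16:20287213-20315040, minus strand) had 101, 72.2 and 98.0 FPKM. It carried the most counts of any member, 10528, 9019 and 12297, or 3.66% ± 0.416 of all counts of lncRNA genes. The next by FPKM on chromosome 3 were ENSRNOG00000063318 (124, 98.9 and 85.9 FPKM), LOC120101499 (120, 71.4 and 89.1) and ENSRNOG00000066142 (107, 76.3 and 80.7). On other chromosomes, ENSRNOG00000065359 (chromosome 7) had 123, 61.5 and 77.9 FPKM, and ENSRNOG00000070050 (chromosome 20) had 106, 74.4 and 70.9. All 5 of these were highest in replicate 1. The other called members had means from 35.7 to 73.0 FPKM. Among them was Hsp90aa1-ps17 (28.1, 34.9 and 46.4 FPKM), named as a pseudogene of the heat shock protein gene Hsp90aa1. RefSeq types this member as a transcribed pseudogene, and it can share reads with Hsp90aa1.

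**Figure D2:**
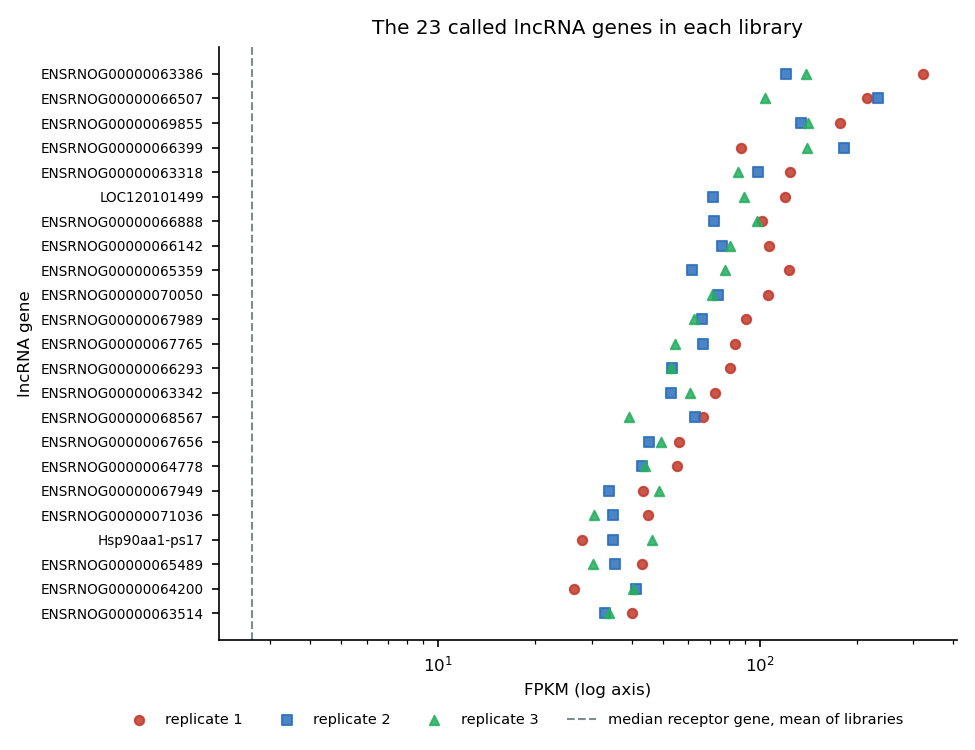
FPKM of the 23 called lncRNA genes (log axis) in each of the 3 libraries, ordered by mean; the dashed line is the receptor median. ENSRNOG00000063386 reaches 322.7 FPKM in replicate 1 against 120.6 and 139.4 in the others, and every point lies above the line.

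Called members lay close to each other and to other high genes. Of the 23, 17 (73.9%) had another called gene of any type within 250 kb, against 16.6% of members that were not called and 31.5% of called coding genes. Called members no more than 1 Mb apart formed 5 stretches that held 13 of the 23. Of 56 coding genes in these stretches or within 250 kb of them, 11 were called, and these belonged to 4 of the 5. These counts were made after the positions had been seen and were not tested.

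The chromosome 3 stretch (chr3:1183025-1592695) held high lncRNA and coding genes side by side: LOC120101499 at 93.5 ± 24.6 FPKM, ENSRNOG00000066142 at 87.9 ± 16.5, the coding gene LOC108353098 at 81.2 ± 18.6, ENSRNOG00000063318 at 103 ± 19.3 and ENSRNOG00000067765 at 68.1 ± 14.7. Between the last 2 lay the coding gene LOC100910078 at 46.0 ± 7.87. The 8 lncRNA genes in the stretch or within 250 kb of it had a median of 46.2 FPKM. On chromosome 1 the pair ENSRNOG00000069855 and ENSRNOG00000067989 (73.0 ± 15.5 FPKM) lay beside the coding genes LOC685793 (341 ± 57.5) and LOC100910657 (244 ± 54.6). On chromosome 16, ENSRNOG00000066888 and ENSRNOG00000063342 (62.1 ± 9.85 FPKM) lay beside the coding gene ENSRNOG00000066981 (197 ± 31.3). Each of the genes named in this paragraph so far was highest in replicate 1, but not every called member of the stretches was. ENSRNOG00000067949, in the chromosome 16 stretch, had 43.3, 34.1 and 48.7 FPKM, highest in replicate 3. ENSRNOG00000066507, on chromosome 9, was highest in replicate 2. How reads that match several places were counted is not given in the sources used here, so levels in stretches of similar copies are uncertain.

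Most high lncRNA genes and most high coding genes differed in which library was low. For each gene, the level in replicate 1 was set against the mean of replicates 2 and 3, on the log2(FPKM + 1) scale relative to the receptor median. The median of this offset was 0.23 over the 23 called lncRNA genes and -0.87 over the 362 called coding genes. By FPKM as listed, not relative to the receptor median, replicate 1 was the highest library in 78.3% of the called lncRNA genes. It was the lowest in 82.3% of the called coding genes. Over all members it was the highest in 45.9% and the lowest in 23.6%. Over all nuclear coding genes these shares were 45.6% and 25.7%, and 50.8% of receptor genes were highest in replicate 1. The offset was above 0 in 19 of 23 called lncRNA genes and in 44 of 362 called coding genes.

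Calls depend on the spread between libraries, so the same was counted over genes with a mean of at least 20 FPKM and 100 counts. There the median offset was 0.16 for 50 lncRNA genes and -0.85 for 686 coding genes. Replicate 1 was the highest library in 58.0% and the lowest in 32.0% of these lncRNA genes, and the lowest in 83.4% of the coding genes.

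An offset above 0 was also seen in called coding genes close to called lncRNA genes. The stretches were defined by called lncRNA genes, so these coding genes were picked by their place. The 11 called coding genes in the stretches described above or within 250 kb of them had a median offset of 0.22. It was above 0 in 10 of 11, and the median was 0.26 for the 13 called lncRNA genes of the stretches. Elsewhere the median was 0.18 for 10 called lncRNA genes, 7 of them above 0. It was -0.88 for 351 called coding genes, 34 of them above 0. The contrast between the 2 types thus remained outside the stretches. Over all members it was -0.03, over all nuclear coding genes -0.06 and over receptor genes 0.05. The contrast was found after the data had been seen and was not tested, and since replicate 1 is 1 library it cannot be told apart from that library's preparation. Replicate 1 also had the fewest counts and the highest receptor median (2.95 FPKM, against 2.35 and 2.63), and the part of these in the contrast was not tested.

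**Figure D3:**
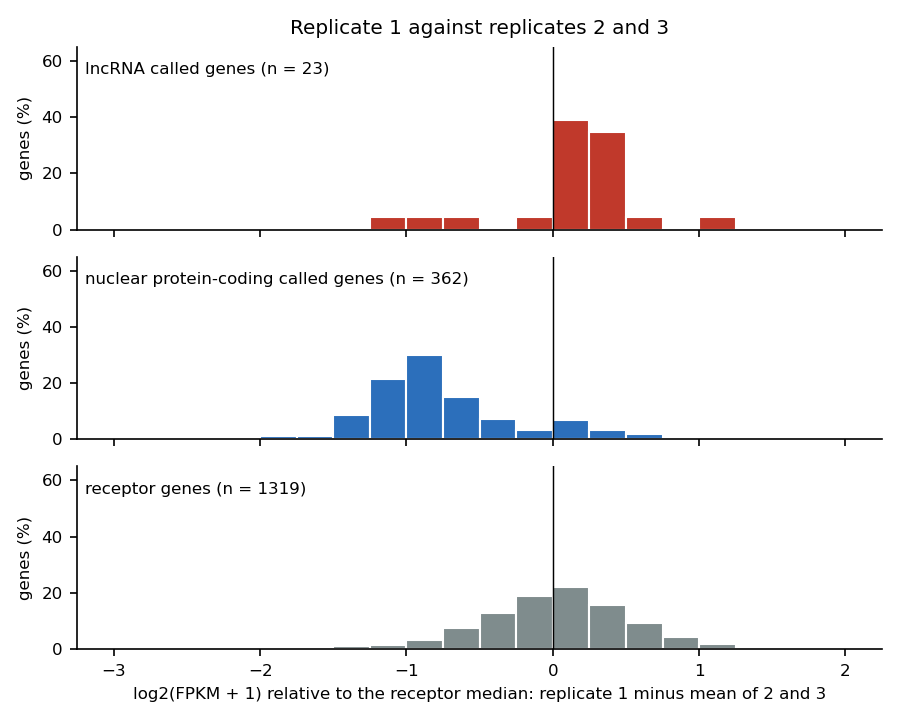
Share of genes (y axis, percent) by the offset of replicate 1 from the mean of replicates 2 and 3 in log2(FPKM + 1) relative to the receptor median (x axis), for called lncRNA, called coding and all receptor genes. The median is 0.23 for lncRNA and -0.87 for coding genes.

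Some high members that were not called were also lowest in replicate 1. AABR07072539.4 (chr6:123970709-123978469, minus strand) had 10.8, 90.2 and 78.8 FPKM, and its mean of 60.0 ± 42.9 was not called (adjusted p 0.85, limma). Nupr1, a stress-induced nuclear protein gene that the table types as lncRNA, had 20.9, 77.8 and 62.8 FPKM and was not called either (adjusted p 0.195, limma). Nupr1l1, on the opposite strand over the whole of Nupr1, had 9.42, 42.6 and 21.1. RefSeq lists Nupr1l1 as another name of Nupr1 and places that gene on the minus strand in GRCr8, where the table has Nupr1 on the plus and Nupr1l1 on the minus strand, so which of these members is the Nupr1 transcript is uncertain. In each of the 3 genes replicate 1 was the low library, with a gap to the next that was at least 2-fold.

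Position was read from the coordinates of the table. No member overlapped a protein-coding gene on either strand, although 4498 coding genes of the same table overlapped another coding gene. This holds for genes that the table types as coding: of the 78 members that RefSeq types as coding, described below, 28 had another member on the opposite strand. Over all 2423 members, 496 had one. A coding or ribosomal RNA gene lay within 5 kb of 1268 members and within 1 kb of 710, the median distance over all members was 4236 bases, and 1154 had none within 5 kb.

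Nearness to a coding gene went with little difference in the median level. The median of the near members was 4.52, 3.78 and 4.11 FPKM in replicates 1, 2 and 3 (4.14 ± 0.370), and that of the isolated ones 4.92, 3.91 and 4.46 (4.43 ± 0.502). The difference on the log2(FPKM + 1) scale was -0.08 ± 0.03, with the near members lower in 3 of 3 libraries (exact two-sided sign-flip permutation test, p = 0.25, the smallest possible). With CPM, which is not divided by length, it turned to 0.012, and with a window of 10 kb it was -0.025, negative in 2 of 3 libraries. By limma's treat test 8 near members (0.631%) and 15 isolated ones (1.30%) were called, against 1.82% of all genes, and these shares were not tested against each other.

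Among near members the medians differed modestly between arrangements of the 2 genes. The 456 divergent members, which start head to head with their neighbour, had a median of 4.08 ± 0.257 FPKM. For the 266 upstream on the same strand it was 4.56 ± 0.309, for the 280 downstream on the same strand 4.03 ± 0.383, and for the 266 convergent ones 3.81 ± 0.454. Each of the 4 medians was highest in replicate 1, and the arrangements were not tested against each other.

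**Figure D4:**
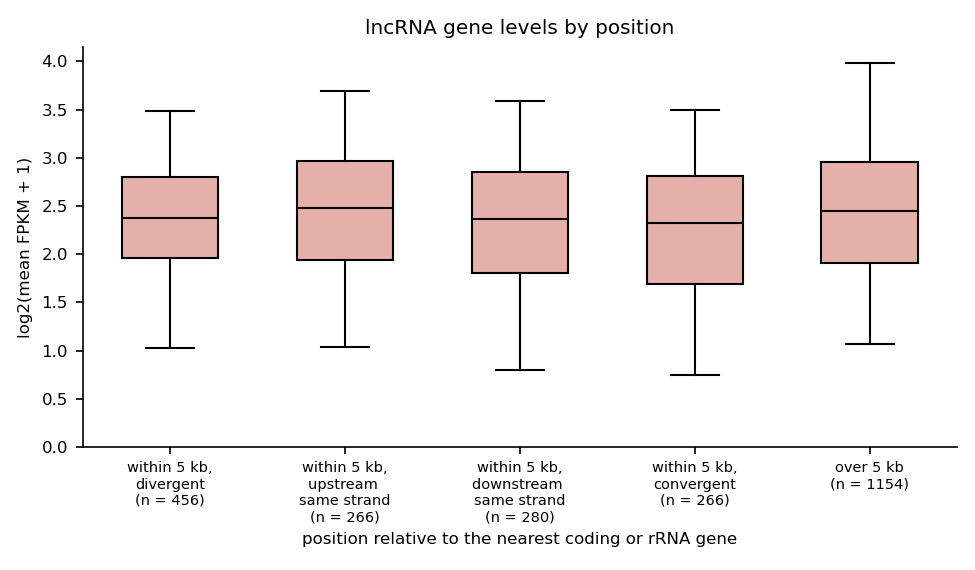
Levels as log2(mean FPKM + 1) (y axis) of lncRNA genes by arrangement with the nearest coding or ribosomal RNA gene, with medians, quartile boxes and whiskers from the 5th to the 95th percentile. The 5 boxes overlap over most of their height, with the lowest median in the convergent members.

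A member's level followed that of its nearest gene only weakly. Across genes, Spearman's rho was 0.19 for 1268 near members and 0.21 for 1154 isolated ones. Among near members it was highest where the member lay downstream on the same strand (0.32, n = 280) and lowest for divergent pairs (0.09, n = 456). Among isolated members the order was another one, with the lowest value downstream on the same strand (0.14, n = 237) and the highest for convergent pairs (0.36, n = 199). All points share the same 3 libraries, and these weak values are given as a description.

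Ribosomal RNA genes were neighbours of 4 members, all at the start of chromosome 2 and all beside copies typed as 5.8S ribosomal RNA, a part of the large ribosomal subunit. ENSRNOG00000070905 (chr2:841580-1035618, minus strand) was the only one that overlapped such a gene, LOC120101316, which is on the opposite strand. It had 13.6, 11.7 and 12.1 FPKM, while LOC120101316 was listed at 0, 0 and 0.633. ENSRNOG00000062880 had 5.86 ± 1.22 FPKM at 395 bases from a copy, ENSRNOG00000068420 had 2.36 ± 0.801 at 393 bases, and ENSRNOG00000063298 had 1.26 ± 0.804 at 4990 bases. The 3 copies beside these last members had 2.79, 1.52 and 1.74 FPKM. None of the 4 members was called. Ribosomal cDNA was cut in these libraries, and the part of that in these levels was not tested.

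Overlap was frequent among lncRNA genes themselves. Of the members, 566 overlapped another, in 277 pairs on opposite strands and 65 on the same strand. Their median level was close to that of the 1857 others (log2(FPKM + 1) difference -0.03 ± 0.04, higher in 1 of 3 libraries, exact two-sided sign-flip permutation test, p = 0.50). It turned positive with CPM (0.066), with members under a mean FPKM of 1 left out (0.037) and with at least 30 counts in every library (0.087). Across pairs, Spearman's rho between the 2 partners was 0.32 on opposite strands and 0.55 on the same strand.

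In 2 opposite-strand pairs both partners were called. ENSRNOG00000069855 and ENSRNOG00000067989 shared 4804 bases and had 151 and 73.0 FPKM. ENSRNOG00000066888 and ENSRNOG00000063342 shared 25783 bases and had 90.5 and 62.1 FPKM. The 2 members near Cavin1, which encodes a coat protein of caveolae, parted between libraries: ENSRNOG00000063787 (chr10:85882322-85884074, plus strand) had 24.8, 38.7 and 30.9 FPKM and its antisense partner ENSRNOG00000071138 had 3.09, 5.94 and 18.8. Whether the counting used the strand is not given in the sources used here, so reads of the partners of a pair may be mixed.

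The names of the members showed a mixed class. Of the 2423, 1945 had an identifier only, 314 an uncharacterised locus symbol, 89 a clone name and 71 another gene symbol. RefSeq entries matched 327 members, and RefSeq types 244 of these as lncRNA and 78 as protein-coding. Matches were made by gene number or symbol, and the 78 members hold 72 symbols, since 6 symbols stand on more than 1 member. The median of those 78 was 5.07 ± 0.434 FPKM against 4.50 ± 0.222 for the 244 (log2(FPKM + 1) difference 0.14 ± 0.05, higher in 3 of 3 libraries, exact two-sided sign-flip permutation test, p = 0.25, the smallest possible).

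Several members with a gene symbol are typed as coding by RefSeq. After Nupr1, the highest of these was Prelid1. This gene, which encodes a mitochondrial lipid transfer protein, had 14.4, 23.6 and 20.5 FPKM. Gpx3, a secreted glutathione peroxidase, had 8.67, 22.0 and 24.0 FPKM. Replicate 1 was the lowest in both, as it was in 44.9% of the 78 and in 21.7% of the 244. Other symbols had lower levels, picked here for their known roles: Apln, encoding the peptide hormone apelin, had 4.89 ± 1.55 FPKM, Adig, an adipocyte gene, 3.96 ± 0.867, and Cebpa, an adipogenic transcription factor, 2.26 ± 0.625. Atp5mc1, a subunit of mitochondrial ATP synthase, appeared as 2 members on opposite strands of the same place, at 13.1 ± 2.87 and 9.12 ± 0.343 FPKM.

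Few lncRNAs could be found by an established name. Of 48 well-known lncRNA symbols searched, 1 was in the table, H19, and there it is typed as protein-coding and so is no member. The search was by symbol only, and 1945 members carry an identifier only, so the other lncRNAs may be present without their symbol. Mir100hg, by its name the host gene of Mir100, was among the symbols searched and not found. Yet ENSRNOG00000067595, a member with an identifier only, holds Mir100 on its strand and is described below. Hosts of small RNAs were not matched to the searched symbols here. H19, an imprinted growth-related RNA, had 23.6, 67.6 and 75.5 FPKM and was not called (adjusted p 0.129, limma). Fendrr, a lncRNA that starts beside the transcription factor gene Foxf1 and is known from lung and heart development in the mouse, had 7.31, 6.01 and 4.92 FPKM on 678, 670 and 551 counts. It lay at 459 bases from Foxf1. Fendrr was above the lncRNA median in every library, and was not called.

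Members that carry small RNAs were at ordinary levels. The 23 members with a small nucleolar or Cajal body RNA on the same strand, RNAs that guide chemical modification of other RNAs, had a median of 3.75 ± 0.313 FPKM. The highest was LOC120102992, which holds Snora61 and Snord99, at 4.96, 11.5 and 9.04. LOC100912041, which holds Snord26, Snord27, Snord28b and Snord30, had 3.16 ± 0.483. Replicate 1 was the low library for the first and replicate 3 for the second.

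The 11 microRNA hosts had a median of 3.67 ± 0.381 FPKM. ENSRNOG00000067969, which holds Mir425 and whose mature sequence is shown above, had 4.88, 10.6 and 8.73 FPKM, lowest in replicate 1. LOC120098113, with Mir143 and Mir145, was steady at 8.51, 7.88 and 7.14 FPKM on 1408, 1569 and 1428 counts. ENSRNOG00000067595, with Mir100, had 2.45, 3.68 and 2.01 FPKM, and LOC120099372, with Mir223, a microRNA of myeloid cells, 2.57, 0.977 and 2.04. The hairpin genes of Mir143, Mir145 and Mir425 were listed with 1 count in each library. Their FPKM ran from 0.00032 (Mir143, replicate 3) to 0.635 (Mir425, replicate 2). Low counts may be rounded up, so these entries do not show that the hairpins were seen. Counts of a hairpin gene are no measure of its mature forms.

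Over all genes, the spread between libraries was somewhat larger for lncRNA than for coding genes, and among high genes it was smaller. The median SD of log2(FPKM + 1) was 0.33 for members, 0.27 for coding genes and 0.36 for receptor genes. At a mean of at least 20 FPKM and 100 counts it was 0.35 for lncRNA and 0.43 for coding genes. The classes differed in depth, with median counts of 58, 58 and 65 for members and 100, 106 and 113 for coding genes. Replicate 1 was the lowest library in 83.4% of the high coding genes. The part of depth and of replicate 1 in these spreads was not tested. Pearson's r of log2(FPKM + 1) across members was 0.778, 0.789 and 0.793 for the 3 pairs of libraries, against 0.823, 0.825 and 0.855 across coding genes. Genes are not independent replicates.

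Among members with a mean of at least 100 counts, the steadiest was ENSRNOG00000064568 on chromosome 3, at 9.88, 9.79 and 9.79 FPKM. ENSRNOG00000069263 on chromosome 12 had 6.85, 6.95 and 6.90. The least steady were listed at 0 in 1 library: ENSRNOG00000069167 had 7.27, 0 and 11.3 FPKM on 131, 0 and 245 counts, and ENSRNOG00000065577 had 0, 5.65 and 9.24 on 0, 222 and 364. In all, 109 members were at 0 in exactly 1 library, and 8 of these had at least 50 counts in both of the others. Of the 8, 4 had an antisense lncRNA partner, against 496 of all 2423 members. A 0 beside such counts is reported as listed and not as absence.

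Promoter windows were found for 282 of 2423 members and for none of the 23 called ones. Their median GC content was 52.5%, against 52.3% over 27457 genes of the same RefSeq table, taking the first start listed for each gene. The 210 windows of members that RefSeq types as lncRNA had a median of 50.5% GC and a ratio of observed to expected CpG of 0.36, and the 72 typed as coding 57.3% and 0.73. CCAAT was present in 37.6% of member windows and 37.7% of all windows, and TATAAA, searched on both strands, in 13.1% and 14.3%. Across the 282 members, level and GC content had a Spearman's rho of 0.07, and level and CpG ratio -0.06.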

How the data were processed

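RNA of 3 vesicle libraries of 1 group was read from 1 deposited table. Per the file headers it holds, for each gene, read counts and FPKM from the authors, with gene type, strand and coordinates. Per the submitters' processing notes, reads were handled with cutadapt 1.9 and FastQC, and the build is mRatBN7.2. The aligner, the counter, the strand setting and the treatment of reads with several matches are not stated in the labels or the table. The labels' protocols name no molecular identifiers. Low counts may be rounded up: the hairpin gene Mir143, listed with 1 count in each library, had 0.0238, 0.0018 and 0.00032 FPKM. The 3 members listed with 1 count in replicate 2 had between 0.00875 and 0.265 FPKM, a range that transcript length can also widen. In replicate 1 the 2 such members had 0.0202 and 0.0295. Per-sample columns left without a sample numbered 0.

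From these values, log2(FPKM + 1) was taken relative to the median of 1319 receptor genes (symbols of olfactory and vomeronasal receptors) in each library. limma 3.58.1 in R 4.3.3 (treat, threshold 2, trended prior, 3 libraries) was fitted over all 29684 genes with Benjamini-Hochberg adjustment. The FPKM test was checked on simulated data; after a first criterion on the share of raised genes called was not met, the check was reset to the size of the difference and to false calls. Class medians were compared within libraries by an exact sign-flip permutation test. CPM in the alternatives is counts scaled to the library total. Overlap means at least 1 shared base on either strand.

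The members and lists were chosen with earlier results of these data known. Named genes were the 12 highest by FPKM with at least 30 counts in every library, the 8 highest by count, called members (the 15 with the largest difference), members within 5 kb of a ribosomal RNA gene, the 5 with the largest and 5 with the smallest SD of log2(FPKM + 1) among those with a mean of 100 counts, and known lncRNA symbols. Other genes named, the RefSeq split, the lncRNA pairs, stretches, library offsets, hosts and promoters were chosen after the values were seen. RefSeq tables (GRCr8) gave types and sequences. Alternatives were CPM, a pseudocount of 0.1, filters, other windows, priors, thresholds and references, and leaving out each library.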

Additional observations from a re-analysis of the deposited data

How the results depend on the processing

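The count of 23 called members rose to 198 with CPM, which is not divided by length, to 49 with a pseudocount of 0.1 and to 163 with a threshold of 1 in place of 2, and of the 23 these included 21, 23 and 23. The share of members called was 8.17%, 2.02% and 6.73% there, below the 12.4%, 2.76% and 8.93% of all genes. Leaving out a library gave 0 to 33, and without replicate 3 no gene of the table was called. ENSRNOG00000068567 was not called with CPM, without replicate 2 or against the median of all genes. Other priors gave 18 to 21, filters on low values 21, and the median of all genes as reference 16. The near minus isolated difference turned to 0.012 with CPM, was -0.025 with a 10 kb window (negative in 2 of 3 libraries) and ranged from -0.10 to -0.07 without each library. The difference between members with and without an overlapping lncRNA turned to 0.066 with CPM, 0.037 without members under a mean FPKM of 1 and 0.087 with at least 30 counts in every library, and was -0.06 to -0.02 without each library. The lncRNA minus receptor difference kept its direction in every alternative run (0.36 to 0.68), as did the RefSeq coding minus RefSeq lncRNA difference (0.09 to 0.85). The mean lncRNA minus coding difference was below 0 in each (-0.76 to -0.01), but with at least 30 counts in every library it was negative in 2 of 3 libraries. The overlapping minus isolated difference, 1.31, rests on 1 gene. Antisense against sense overlap with coding genes could not be computed, since 0 members overlapped a coding gene, and a larger minimum overlap gave no value. With 58 to 65 counts for the median member, small differences between single members were not detectable at this depth. The causes of these changes were not tested. No paired analysis was possible because there was only 1 group.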
